A study of Bos taurus with 54 samples.

Results

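The Toll-like receptors of bovine blood cells were followed through a day of acute heat stress in Holstein male calves. The family was taken by symbol, as the gene rows named TLR1 to TLR10, and 9 of these 10 symbols had a row among the 32637 genes counted. No row carried the symbol TLR1, which the RefSeq annotation lists as another name of both TLR6 and TLR10, so TLR1 was not analysed here. The 5 surface receptors with a row were TLR2, TLR4, TLR5, TLR6 and TLR10, and the 4 endosomal receptors were TLR3, TLR7, TLR8 and TLR9.

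Whole blood came from 15 calves housed in climate control rooms, once in the morning under thermoneutral conditions (control) and once in the evening after 12 h of heat (heat stress). Breed, sex and housing were shared by all groups, and the age of the calves is not given in the sources used here. The control is the morning sample of the same animals, so heat stress and time of day cannot be told apart. Red cells were lysed and the remaining cells pelleted before RNA extraction, which leaves a mixture of blood cells whose proportions are not given in the sources used here. Platelet and erythroid transcripts were still counted beside those of leukocytes. Libraries were made from this RNA with 2 kits that read the 3′ end of polyadenylated transcripts, 27 with each. These were the SMART-Seq v4 3′ DE kit of Takara and the QuantSeq 3′ kit of Lexogen. The labels and the study's design table disagreed on the time of animal 20, whose single library per kit was left out, leaving 13 control and 13 heat stress libraries per kit, 12 animals of each kit having both.

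Toll-like receptors are membrane proteins that recognise conserved molecules of microbes and of damaged cells and start inflammatory gene expression. Surface members bind bacterial components such as lipopeptides (TLR2 with TLR6), lipopolysaccharide (TLR4) and flagellin (TLR5), whereas endosomal members bind nucleic acids, namely RNA (TLR3, TLR7 and TLR8) or unmethylated CpG DNA (TLR9). In blood, neutrophils and monocytes are known carriers of TLR2 and TLR4, and B cells and plasmacytoid dendritic cells of TLR7 and TLR9. Apart from TLR3, members of known signalling use the adaptor MYD88, and the signal ends at the transcription factors NF-kB, AP-1 and the interferon regulatory factors.

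Reads on genes ranged from 5140595 to 20699030 per Takara library and from 4516761 to 58521751 per Lexogen library, and the receptors together received 696 to 8588 and 1131 to 13123 of these reads. Levels are given as CPM, a gene's reads scaled to a common total of reads on genes, after TMM scaling, a factor per library that sets the bulk of the genes equal. Heat stress was compared with control by edgeR's quasi-likelihood test, p-values were adjusted over all genes tested in the kit (Benjamini-Hochberg), and a gene was called when the adjusted p was under 0.05. In Takara, 2325 genes were called higher and 1321 lower under heat stress. When libraries were scaled by their total count instead, the split was 1301 higher and 2184 lower and the median log2 fold change of all genes moved from -0.05 to -0.27. In Lexogen, 565 genes were called higher and 51 lower. The reads carry no molecular identifiers, so limits derived from counts cover counting error only.

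Heat stress libraries held more TLR4 and TLR8 transcript than control libraries in Takara, and more TLR4 in Lexogen. Of the 8 receptors tested in Takara, 2 were called, both higher, where 28.9% of all 12620 genes tested were called (18.4% higher). Of the 7 tested in Lexogen, 1 was called, TLR4, where 5.55% of 11108 genes were called (5.09% higher). In this model, of time alone with TMM scaling, edgeR's quasi-likelihood test called 0 receptors lower in either kit, where it called 10.5% of Takara and 0.459% of Lexogen genes lower. DESeq2 also called 0 lower. TLR3 in Takara had an unadjusted p under 0.05 in both tools, and TLR10 in Lexogen in DESeq2. TLR3 was called lower in Takara with the animal as a block and with total counts as library size, as given with its values. The median log2 fold change of the surface receptors tested was -0.21 in Takara and -0.02 in Lexogen, that of the endosomal receptors 0.33 and -0.06, and that of all genes -0.05 and -0.08.

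**Figure D1:**
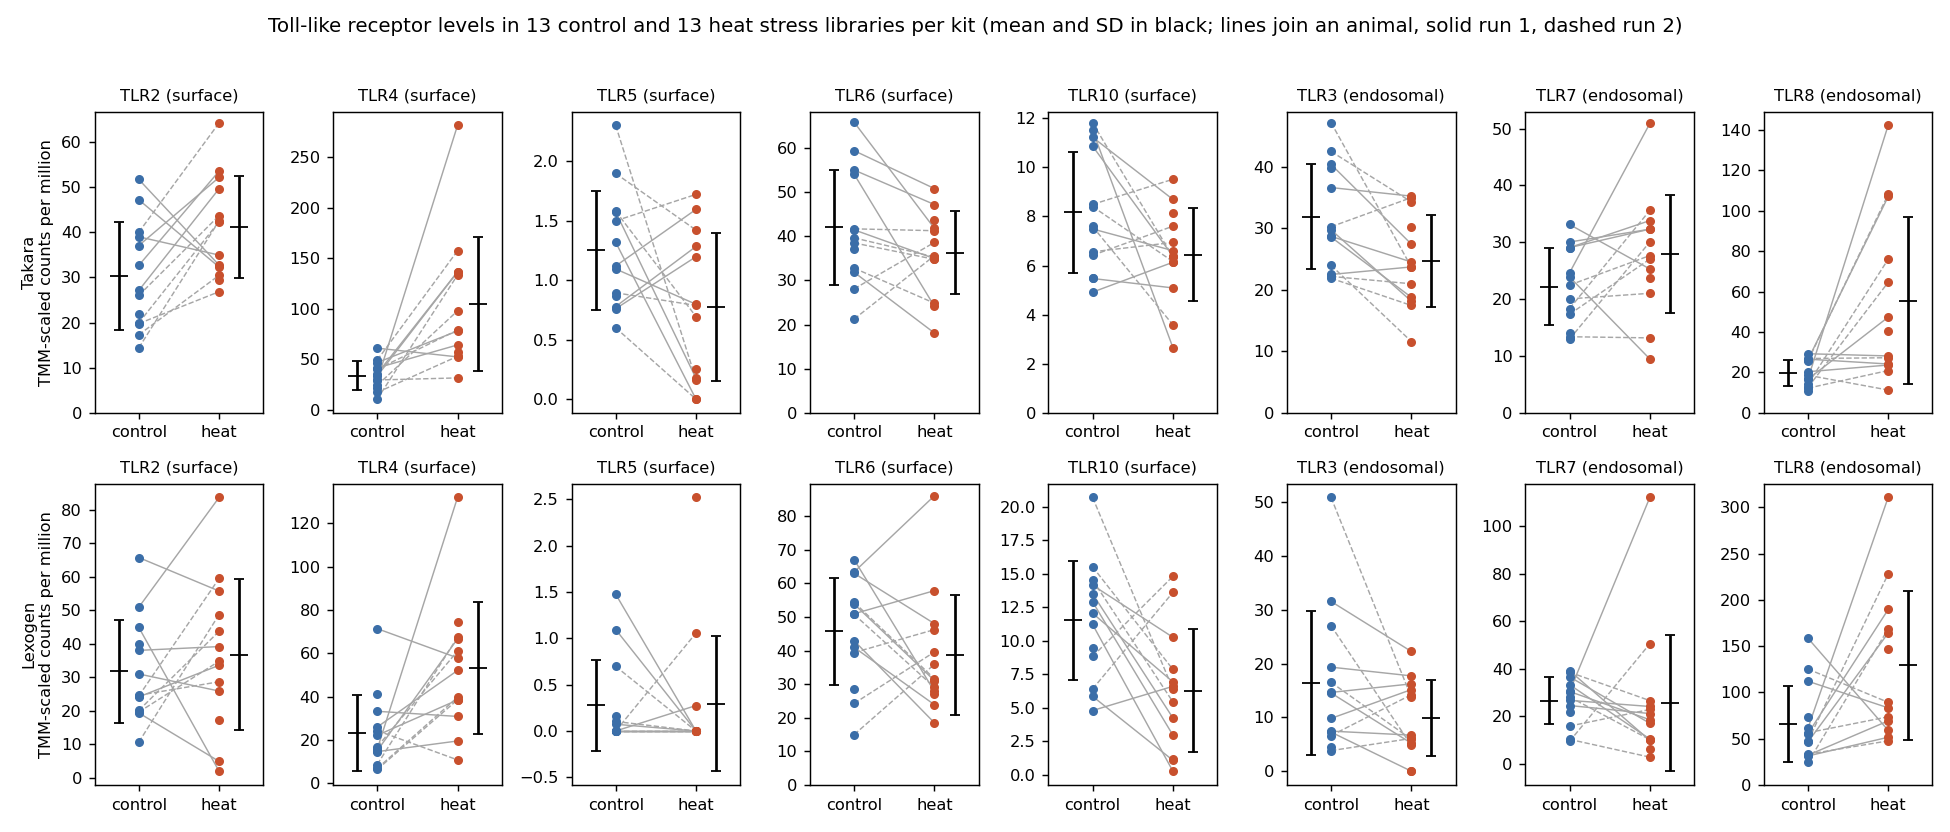
Levels of 8 receptors in each library, in TMM-scaled CPM on a linear axis, for Takara (upper row) and Lexogen (lower row). Points are libraries, grey lines join the 2 libraries of an animal (solid for the first run of sample numbers, dashed for the second), and black marks give the mean and SD of 13 libraries. TLR4 in Takara spans 10.6 to 61.0 in control and 31.6 to 281.1 under heat stress, while for TLR6 in Takara 4 control libraries lie above every heat stress library and for TLR7 in Takara 3 heat stress libraries lie above every control library.

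TLR4, the lipopolysaccharide receptor, lies at chr8:107057826-107068837 in ARS-UCD2.0. In Takara its lowest, median and highest levels were 10.6, 33.5 and 61.0 CPM in control and 31.6, 78.9 and 281.1 CPM under heat stress (mean 33.9 ± 13.9 against 104 ± 66.3, SD, n = 13 each). The groups overlapped, although 9 of 13 heat stress libraries lay above every control library. The log2 fold change was 1.62 (SE 0.28), a 3.07-fold difference, with an adjusted p of 0.000418 in edgeR's quasi-likelihood test. TLR4 was higher under heat stress in 11 of 12 animals, the exception being animal 41 with 61.0 CPM in control and 52.4 CPM after heat. The widest change within an animal was that of animal 36, from 10.6 to 133 CPM.

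In Lexogen, TLR4 had a lowest, median and highest level of 6.32, 16.8 and 71.4 CPM in control and of 10.7, 52.1 and 132 CPM under heat stress. Here 2 heat stress libraries lay above every control library and 3 control libraries below every heat stress library. The log2 fold change was 1.19 (SE 0.35, adjusted p = 0.0352, edgeR's quasi-likelihood test), and 9 of 12 animals were higher after heat. Of the 10 animals with both times in both kits, 7 were higher in both and 1, animal 41, lower in both. The Takara call of TLR4 was kept in all 26 fits that each left out 1 library, with log2 fold changes from 1.39 to 1.72. The Lexogen call was kept in 14 of 26 such fits, with adjusted p from 0.00664 to 0.079. It was lost without the control library of animal 16, 18, 19, 23, 29, 32 or 36 or the heat stress library of animal 15, 16, 18, 36 or 40. With the animal as a block it was also lost in Lexogen (log2 fold change 1.34, adjusted p = 0.0994).

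TLR2, which pairs with TLR6 to bind bacterial lipopeptides, lies at chr17:3939778-3979483 and shares 13072 bases of its span with RNF175. Reads that overlap both genes are counted as ambiguous, so some can be missing from its unstranded count. Over 27 Lexogen libraries it had 10150 unstranded and 10306 sense reads. Its lowest, median and highest Takara levels were 14.4, 27.1 and 51.7 CPM in control and 26.8, 42.3 and 64.2 CPM under heat stress. The Lexogen levels were 10.7, 24.7 and 65.7 CPM in control and 2.0, 34.8 and 83.6 CPM under heat stress. Both groups overlapped in both kits, and the lowest Lexogen value, that of the heat stress library of animal 12, rested on 15 reads. Takara gave a log2 fold change of 0.44 (SE 0.19) with an adjusted p of 0.0758 in edgeR's quasi-likelihood test, and Lexogen one of 0.21 (SE 0.36). Leaving out 1 library moved the Lexogen value between 0.046, without the heat stress library of animal 40, and 0.34, without the control library of animal 41. With the animal as a block, TLR2 passed the threshold in Takara (log2 fold change 0.50, adjusted p = 0.0481, edgeR's quasi-likelihood test). It also passed when the heat stress library of animal 3 or the control library of animal 12 or 19 was left out, with adjusted p over the 26 such fits from 0.0322 to 0.153.

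The numbers in the sample titles form 2 separate runs that the labels do not explain. They were treated as a possible batch, and each animal lay within 1 run. TLR2 was higher after heat in 6 of 6 Takara animals and 5 of 5 Lexogen animals of the second run, and in 3 of 6 and 3 of 7 animals of the first. Within the first run its log2 fold change was 0.12 in Takara and -0.26 in Lexogen, and within the second 0.89 and 0.93. The difference between the runs in Takara was 0.71 on the log2 scale (unadjusted p = 0.046 and adjusted p = 0.29 in edgeR's quasi-likelihood test), so it did not pass. TLR4 showed log2 fold changes of 1.54 and 1.72 within the Takara runs and of 1.05 and 1.39 within the Lexogen runs, where neither passed (adjusted p = 0.202 and 0.343, edgeR's quasi-likelihood test). TLR8 showed 1.45 and 1.52 within the Takara runs, the second with an adjusted p of 0.0596, and 0.91 and 1.09 within the Lexogen runs, with 0.305 and 0.372 in edgeR's quasi-likelihood test. For the difference between the runs, edgeR's quasi-likelihood test called 0 of 8 receptors in Takara (2.58% of genes) and 0 of 7 in Lexogen (0.018%). TLR2 in Takara was the 1 receptor with an unadjusted p under 0.05. In Lexogen the TLR2 difference between the runs was 1.14 (SE 0.71). In simulated data the test recovered 18% of 2-fold differences between runs in Takara and 1% in Lexogen. A difference that was not called is therefore not shown to be absent.

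TLR6 and TLR10 lie beside each other on chromosome 6, TLR10 at chr6:58034097-58054261 and TLR6 at chr6:58050661-58091640, and their spans share 3601 bases. TLR6 is the partner of TLR2, and TLR10 has been described as a receptor that dampens signalling. Reads that overlapped more than 1 gene stood in a total of ambiguous reads and not in a gene row. Reads from the shared bases can therefore be missing from both. As TLR6 and TLR10 are related genes, the placing of other reads between them is also uncertain. TLR6 had median Takara levels of 39.6 CPM (range 21.2 to 65.8) in control and 35.6 CPM (18.1 to 50.8) under heat stress, and Lexogen medians of 50.8 CPM (15.0 to 67.1) and 31.6 CPM (18.5 to 86.1). It was lower after heat in 10 of 12 Takara animals and 7 of 12 Lexogen animals, with log2 fold changes of -0.21 (SE 0.16) and -0.24 (SE 0.24) that did not pass the test (adjusted p = 0.331 and 0.682, edgeR's quasi-likelihood test).

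TLR10 had median levels of 7.59 CPM (4.92 to 11.8) in control and 6.38 CPM (2.66 to 9.52) under heat stress in Takara. In Lexogen the medians were 12.0 CPM (4.78 to 20.7) and 6.38 CPM (0.251 to 14.8), and 5 of 13 heat stress libraries lay below every control library. It was lower after heat in 8 of 12 Takara and 9 of 12 Lexogen animals. The log2 fold changes of -0.34 (SE 0.18) and -0.88 (SE 0.44) did not pass the test, with adjusted p of 0.158 and 0.303 in edgeR's quasi-likelihood test.

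TLR5, the flagellin receptor at chr16:26599859-26625271, was counted at the edge of detection. Takara control libraries held 3 to 26 reads of it and heat stress libraries 0 to 24, with 2 of the latter at 0. Its median Takara level was 1.12 CPM (0.599 to 2.30) in control and 0.787 CPM (0 to 1.72) under heat stress, and 5 heat stress libraries lay below every control library. The log2 fold change of -0.65 (SE 0.40) did not pass (adjusted p = 0.22, edgeR's quasi-likelihood test). In Lexogen, TLR5 was at 0 in 7 control and 10 heat stress libraries, failed the filter on low counts and was not tested. Its highest Lexogen count, 120 reads, stood in the heat stress library of animal 15, the deepest of the kit.

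TLR8, which binds RNA in endosomes, lies on the X chromosome at X:130727684-130745770, 22775 bases from its neighbour TLR7 at X:130768546-130786344. In Takara its lowest, median and highest levels were 10.9, 18.6 and 29.2 CPM in control and 11.3, 40.7 and 142 CPM under heat stress (mean 19.8 ± 6.48 against 55.5 ± 41.3, SD, n = 13 each). Thus 7 of 13 heat stress libraries lay above every control library, while the others overlapped with control. The log2 fold change was 1.48 (SE 0.31), 2.80-fold, with an adjusted p of 0.0013 in edgeR's quasi-likelihood test, and it stayed called in all 26 fits that left out 1 library (1.26 to 1.58).

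TLR8 was higher after heat in 9 of 12 Takara animals, and the changes within animals were uneven. It went from 16.9 to 142 CPM in animal 18 and from 14.2 to 76.1 CPM in animal 16, and from 18.6 to 11.3 CPM in animal 3. The Lexogen libraries of animal 3 went the other way, from 33.1 to 47.6 CPM. Of the 10 animals with both times in both kits, 6 were higher in both and 2 lower in both. In Lexogen the lowest, median and highest levels were 24.3, 55.5 and 158 CPM in control and 47.6, 89.2 and 311 CPM under heat stress. The highest library of each kit was that of animal 18 for TLR8 and for TLR4. The Lexogen log2 fold change of 0.97 (SE 0.31) did not pass the threshold (adjusted p = 0.0594, edgeR's quasi-likelihood test), with 9 of 12 animals higher. It passed in 8 of 26 fits without 1 library, namely without the control library of animal 12, 14 or 41 or the heat stress library of animal 3, 12, 19, 23 or 32 (adjusted p from 0.0202 to 0.125 over the 26 fits).

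TLR3, the endosomal receptor of long RNA duplexes, lies at chr27:16176274-16187572 and shares 1779 bases with the uncharacterised gene LOC132344049. Its lowest, median and highest Takara levels were 21.9, 29.7 and 47.2 CPM in control and 11.6, 23.7 and 35.2 CPM under heat stress. Here 5 heat stress libraries lay below every control library and 5 control libraries above every heat stress library. In Lexogen the levels were 3.83, 14.5 and 50.9 CPM in control and 0, 6.71 and 22.3 CPM under heat stress. TLR3 was lower after heat in 10 of 12 Takara and 8 of 12 Lexogen animals, with log2 fold changes of -0.37 (SE 0.16, adjusted p = 0.0881) and -0.74 (SE 0.55, adjusted p = 0.554) in edgeR's quasi-likelihood test. In Takara it passed with the animal as a block (-0.38, adjusted p = 0.0377) and with the total count as library size (-0.55, adjusted p = 0.0387), both in edgeR's quasi-likelihood test.

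TLR7, the second endosomal receptor of RNA beside TLR8, had median levels of 22.5 CPM (12.96 to 33.1) in control and 27.7 CPM (9.48 to 50.9) under heat stress in Takara. The Lexogen medians were 28.2 CPM (9.49 to 39.3) and 18.6 CPM (2.86 to 112). Its direction in most animals differed between kits, with 9 of 12 Takara animals and 3 of 12 Lexogen animals higher after heat. In plain CPM, without TMM scaling, 7 of 12 Takara and 3 of 12 Lexogen animals were higher. Of the 10 animals with both times in both kits, 3 were higher in both and 2 lower in both. The log2 fold changes were 0.33 (SE 0.20) and -0.06 (SE 0.39), and neither passed edgeR's quasi-likelihood test (adjusted p = 0.209 and 0.968).

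TLR9, the receptor of CpG DNA at chr22:48676670-48680933, was almost absent from the counts. It received 3 reads in 1 Takara heat stress library, that of animal 32, and 0 reads in the other 25 Takara and all 26 Lexogen libraries. A count of 0 allows up to 3 reads, which is 0.145 to 0.584 CPM in a Takara and 0.0513 to 0.664 CPM in a Lexogen library, so no difference was detectable at this depth.

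**Figure D2:**
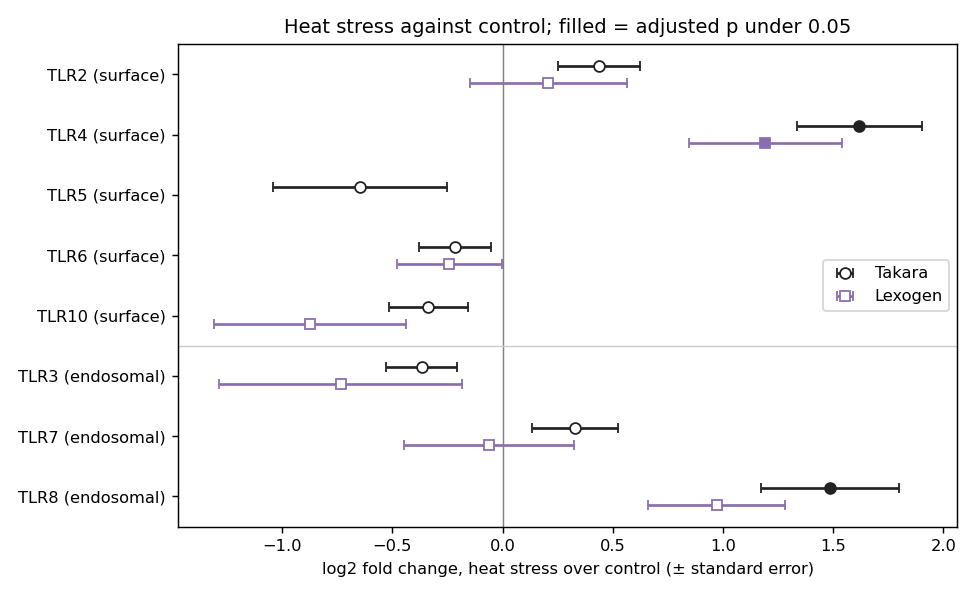
Log2 fold change of heat stress over control for each receptor tested, with its standard error, in Takara (circles) and Lexogen (squares), 13 libraries per group. Filled symbols have an adjusted p under 0.05. TLR4 and TLR8 stand at 1.62 and 1.48 in Takara and at 1.19 and 0.97 in Lexogen, while the other receptors lie between -0.88 and 0.44.

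The kits did not give detectably different heat responses for any receptor. For the 24 RNA samples that had a library of each kit, the Takara minus Lexogen difference of the log2 fold change was -0.04 for TLR4 (95% interval -0.55 to 0.47) and -0.03 for TLR8 (-0.47 to 0.41). The interval of TLR7 reached from 0.01 to 1.23 around 0.62 and that of TLR3 from -0.65 to 1.957 around 0.65, which leaves room for sizeable differences. The normal interval of TLR7 lies just above 0, whereas the unadjusted p of edgeR's quasi-likelihood test, which does not use this interval, was 0.0552. For this interaction of kit and time, edgeR's quasi-likelihood test called 0 of 8 receptors and 0% of 13354 genes (526 genes at an unadjusted p under 0.05, none of them a receptor).

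The levels themselves differed between kits. In 12 control RNA samples read by both, TLR8 was higher in Lexogen in 12 of 12, with a median of 63.2 CPM (29.5 to 180) against 16.8 CPM (10.2 to 27.9) in Takara when all 24 libraries were scaled together. The Takara minus Lexogen log2 difference of TLR8 was -1.94 (SE 0.18, adjusted p = 5.02e-08, edgeR's quasi-likelihood test with the RNA sample as a block). TLR3 went the other way, with 28.6 CPM in Takara against 17.3 CPM in Lexogen, and was higher in Takara in 9 of 12 samples (0.92, SE 0.30, adjusted p = 0.0136, edgeR's quasi-likelihood test). TLR7 and TLR10 were lower in Takara by edgeR's quasi-likelihood test (-0.52 and -0.69, adjusted p = 0.0224 and 0.0315), and TLR2, TLR4 and TLR6 did not pass. In all, 4 of 7 receptors were called where 64.2% of 12386 genes were, 1 higher in Takara (36.6% of genes) and 3 lower (27.6%). With RLE size factors in place of TMM, the median of all genes moved from 0.26 to 0.39, TLR7 and TLR10 no longer passed and TLR4 did (0.56, adjusted p = 0.0339, edgeR's quasi-likelihood test). With sense counts 6 of 7 were called, TLR2 and TLR6 being lower in Takara as well (-0.48 and -0.36, adjusted p = 0.0235 and 0.0389, edgeR's quasi-likelihood test). With no filter on low counts 3 were called, TLR3 and TLR5 higher and TLR8 lower in Takara.

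**Figure D3:**
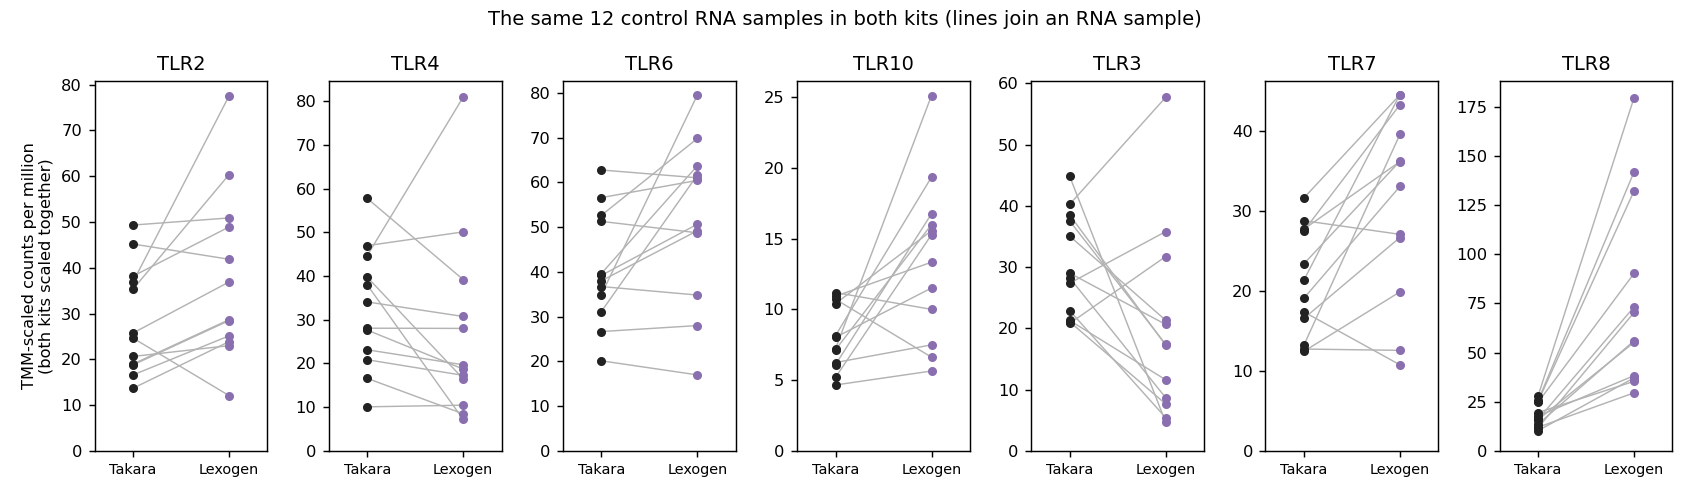
The 12 control RNA samples that had a library of each kit, in TMM-scaled CPM with both kits scaled together (linear axis). Lines join the Takara and the Lexogen library of an RNA sample. For TLR8 all 12 lines rise from Takara (10.2 to 27.9) to Lexogen (29.5 to 180), while for TLR3 9 of 12 fall.

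Surface and endosomal receptors were then compared as summed levels. The surface sum had a Takara median of 105 CPM (65.9 to 176) in control and 166 CPM (106 to 359) under heat stress, and the endosomal sum one of 73.1 CPM (55.4 to 91.04) and 97.1 CPM (59.9 to 211). In Lexogen the surface sum went from 115.4 CPM (40.8 to 176) to 137 CPM (55.2 to 202) and the endosomal sum from 91.5 CPM (38.5 to 229) to 153 CPM (78.2 to 423). Both sums had higher medians under heat stress in both kits, with overlapping ranges.

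Within animals, the surface sum was higher after heat in 9 of 12 Takara and 8 of 12 Lexogen animals, and the endosomal sum in 10 of 12 and 8 of 12. The surface log2 ratio of heat to control minus the endosomal one had a median of 0.05 in Takara (-0.25 to 1.16, above 0 in 6 of 12 animals) and of -0.38 in Lexogen (-1.75 to 2.04, above 0 in 5 of 12). Neither class stood above the other in more than 7 of 12 animals of a kit. The share of 1 gene in each sum differed between the times. Mean levels of TLR3, TLR6 and TLR10 were lower under heat stress in both kits, and that of TLR2 higher. The mean of TLR7 was higher in Takara and lower in Lexogen. TLR4 made up 29.3% of the Takara surface sum over the 13 control libraries and 55.3% over the heat stress libraries, and TLR8 26.8% and 51.4% of the endosomal sum. In Lexogen these shares were 20.6% and 39.3% for TLR4 and 60.5% and 78.5% for TLR8.

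**Figure D4:**
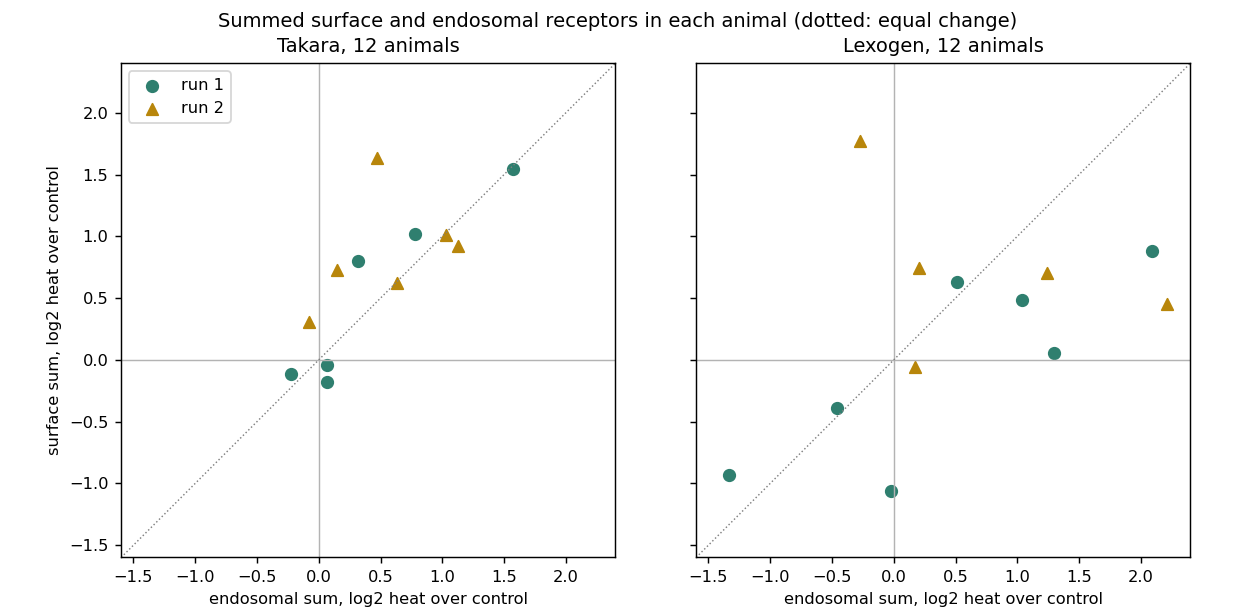
Log2 ratio of heat stress to control of the summed surface receptors (vertical) against that of the summed endosomal receptors (horizontal), 1 point per animal, with the run of sample numbers as the symbol. The dotted line marks equal change. In Takara 6 of 12 animals lie above it and in Lexogen 5 of 12, and the Lexogen points scatter more widely.

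After the mean of each time was removed, TLR4 and TLR8 varied together across libraries, with a Pearson r of 0.87 over 26 Takara and 0.54 over 26 Lexogen libraries. TLR2 and TLR4 had an r of 0.83 and 0.29, and TLR2 and TLR8 one of 0.67 and 0.34. TLR3 varied against TLR8 (-0.53 and -0.32) and against TLR4 (-0.46 and -0.42), and the neighbours TLR6 and TLR10 had an r of 0.46 and 0.28. The neighbours TLR7 and TLR8 were nearly unrelated (-0.04 and 0.09). The libraries of an animal share that animal, and all genes of a library share its depth and cell mixture, so these values are descriptions.

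Among 10795 genes tested in both kits, those most like each receptor were ranked by the lower of the 2 kits' r over 26 libraries each. TLR4 was most like C1RL (0.85) and IFIT3, an interferon-induced gene (0.83), and TLR8 most like VIM, which encodes the intermediate filament vimentin (0.87), and SKAP2 (0.83). TLR2 was most like BNIP3L (0.69) and PSMD5 (0.68), and TLR3 like GGTA1 and FABP3 (both 0.69). TLR7 was most like the heat shock protein gene HSPH1 (0.69) and GNPTAB (0.62). The closest genes were less alike for TLR6, with LOC101903853 (0.57) and SLC25A39 (0.56), and for TLR10, with TBC1D9 (0.62) and MCEE (0.60). No receptor was among the 2 genes most like another. As 24 RNA samples had a library of each kit, the r of the 2 kits are not independent. The genes named are the highest of 10795, and their likeness was not tested.

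The partners and the signalling chain of the receptors were described from 6 further lists, of which 69 genes were tested in Takara and 66 in Lexogen. In Takara 20 of these were called higher and 2 lower, with a median log2 fold change of 0.20, and in Lexogen 8 were called higher and 0 lower (median 0.19), where edgeR's quasi-likelihood test called 18.4% and 5.09% of all genes higher and 10.5% and 0.459% lower. With the total count as library size, 13 were called in Takara, and with the animal as a block 0 were called in Lexogen.

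Of the 4 co-receptors tested by edgeR's quasi-likelihood test, 1 was called, LY96 (MD-2), the protein that holds lipopolysaccharide on TLR4. It rose under heat stress by a log2 fold change of 1.54 in Takara (SE 0.33, adjusted p = 0.00129) and 1.10 in Lexogen (SE 0.29, adjusted p = 0.0181) in this test. DESeq2 on all expressed genes gave a p-value for 6 co-receptors and called 2 higher in each kit. CD14, which passes lipopolysaccharide to the pair of LY96 and TLR4, had 0.26 (SE 0.24) in Takara and -0.07 (SE 0.42) in Lexogen and was not called by edgeR's quasi-likelihood test. Of the 5 adaptors, MYD88 rose in both kits (1.68 and 1.41, adjusted p = 0.00115 and 0.00935, edgeR's quasi-likelihood test). This test called 18.4% of all genes higher in Takara and 5.09% in Lexogen. TIRAP, which bridges TLR2 and TLR4 to MYD88, rose in Takara (1.399, adjusted p = 0.000972) and had 0.78 in Lexogen (adjusted p = 0.492, edgeR's quasi-likelihood test). TICAM1, the adaptor of TLR3, had 0.28 (SE 0.27) in Takara and was not called.

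Of 11 chaperones and proteases that carry endosomal receptors to their compartment or cleave them there, 2 were called in Takara, the protease CTSH (0.67) and the transporter SLC15A4 (0.59), with adjusted p of 0.0179 and 0.0199 in edgeR's quasi-likelihood test. Of all genes tested, 18.4% were called higher and 10.5% lower in Takara, and 5.09% and 0.459% in Lexogen. In Lexogen edgeR's quasi-likelihood test and DESeq2 called 0 of this list, with 0 at an unadjusted p under 0.05, and UNC93B1, the chaperone of the endosomal receptors, had -0.11 (SE 0.15) in Takara and 0.29 (SE 0.24) in Lexogen. Among 22 kinases and ubiquitin ligases, 5 were called higher in Takara, with PELI2 (0.80) and TBK1 (0.57) foremost, and 1 lower, IKBKE (-0.58). In Lexogen edgeR's quasi-likelihood test and DESeq2 called 0 of these 22 genes, with 0 and 1 at an unadjusted p under 0.05, where PELI2 had 0.87, TBK1 0.71 and IKBKE 0.39.

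Of 12 transcription factors, 3 were called higher in Takara and 2 in Lexogen. Over all genes, the shares called higher were 18.4% and 5.09%, and those called lower 10.5% and 0.459%. REL, an NF-kB subunit, rose by 1.61 and 1.10 and JUN, an AP-1 subunit, by 0.84 and 0.73 on the log2 scale. Of 15 inhibitors of the pathway tested in Takara, 7 were called higher and 1 lower, and of 14 in Lexogen 4 were called higher. IL1RL1, the interleukin 33 receptor, rose by 3.42 in Takara (SE 0.61, adjusted p = 0.000452) and 2.87 in Lexogen (SE 0.77, adjusted p = 0.0212) in edgeR's quasi-likelihood test, the widest changes of the lists. NFKBIA, which holds NF-kB in the cytoplasm and is itself a target of NF-kB, rose by 2.01 and 1.64. SIGIRR, a membrane inhibitor of the family, was called lower in Takara (-0.61, adjusted p = 0.00893, edgeR's quasi-likelihood test).

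**Figure D5:**
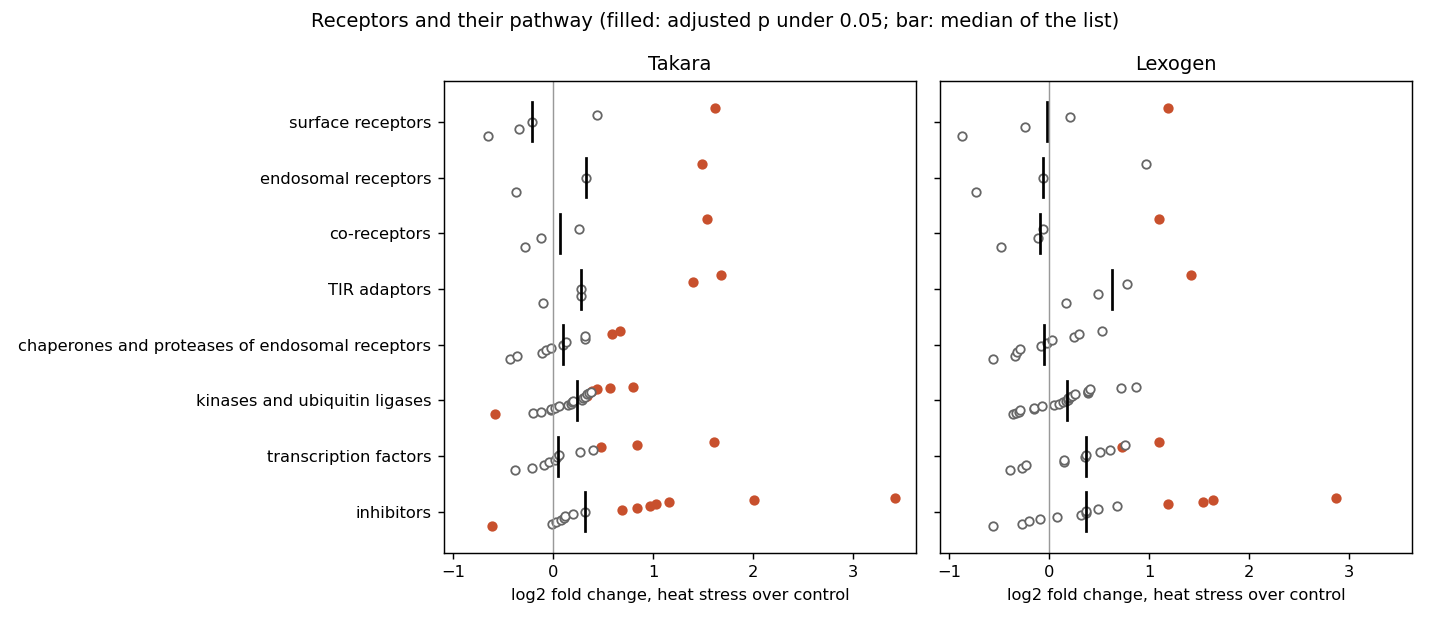
Log2 fold change of heat stress over control for the tested genes of the receptor classes and of the 6 lists of partners and signalling genes, in Takara (left) and Lexogen (right). Filled points have an adjusted p under 0.05 and black bars are list medians. IL1RL1 is the point farthest to the right in both panels (3.42 and 2.87), and most genes lie near 0.

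The summed level of neutrophil markers moved with TLR4 and TLR8. The summed level of 8 neutrophil markers had a Takara median of 6340 CPM (2439 to 10493) in control and 17404 CPM (2903 to 41123) under heat stress, and Lexogen medians of 2580 CPM (1139 to 5009) and 6243 CPM (1542 to 19392). In Takara 6 of the 8 were called higher, with a median log2 fold change of 1.68. In Lexogen 4 of the 8 were called higher (median 1.23), and none of the 8 was at 0 throughout. FCGR3A went the other way, at -0.05 in Takara and -0.34 in Lexogen, and was not called. Of all genes tested, 18.4% were called higher in Takara and 5.09% in Lexogen. With the mean of each time removed, the Pearson r of this sum with TLR4 was 0.85 over 26 Takara and 0.69 over 26 Lexogen libraries, and with TLR8 0.88 and 0.77. Fewer or more cells of a type and less or more RNA per cell cannot be told apart in such bulk samples, and the part of the neutrophil markers in the TLR4 and TLR8 differences was not tested.

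Of 7 monocyte markers, 3 were called higher in Takara and 0 in Lexogen by edgeR's quasi-likelihood test and by DESeq2, with 3 of 7 at an unadjusted p under 0.05 in Lexogen. In Takara their summed level had medians of 1076 CPM (241 to 2342) in control and 1176 CPM (668 to 2066) under heat stress. TLR2 had an r of 0.76 with the monocyte sum and 0.70 with the neutrophil sum in Takara, and of 0.29 with both in Lexogen. Of 6 T cell markers, 3 were called lower in Takara and 0 in Lexogen by edgeR's quasi-likelihood test and by DESeq2. In Lexogen 0 of them had an unadjusted p under 0.05. The T cell sum had an r of -0.89 and -0.78 with TLR8, and of -0.78 and -0.47 with TLR4. Of 6 B cell markers, 1 was called lower in Takara, and the B cell sum had Takara medians of 684 CPM (460 to 814) in control and 483 CPM (187 to 825) under heat stress. TLR10 had an r of 0.33 and 0.12 with the B cell sum, and of 0.55 and 0.24 with the dendritic cell sum. By edgeR's quasi-likelihood test 0 dendritic cell, eosinophil, platelet or erythroid markers were called in either kit, with 1 dendritic cell marker in Takara and 1 erythroid marker in Lexogen at an unadjusted p under 0.05, and DESeq2 called 1 platelet marker in Takara. Of 5 NK cell markers, 1, NCR1, was called higher in both. Beside these counts, edgeR's quasi-likelihood test called 18.4% of all Takara genes higher and 10.5% lower, and 5.09% and 0.459% of all Lexogen genes. Every leukocyte list had detected markers, 3 of 5 eosinophil markers had no row, and the hemoglobin row HBA was at 0 in every Lexogen library. The platelet and erythroid sums had Takara control medians of 2372 and 1698 CPM, so the RNA was not from leukocytes alone.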

How the data were processed

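Counts of 3′ mRNA-Seq reads were analysed for 54 libraries, 27 per kit. The authors used Trimmomatic 0.39 on the forward reads and STAR 2.7.10b against ARS-UCD2.0, and deposited raw counts per gene, unstranded, sense and antisense, under 4 rows of totals that were left out of library sizes. The column the authors tested is not given in the sources used here. The unstranded counts were used, and 97.3% to 100% of receptor reads were sense. No pair of libraries was identical.

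Heat stress and control were compared within a kit with edgeR 4.0.16 (filterByExpr, TMM, quasi-likelihood test of time alone, as the study's model had time alone, R 4.3.3), with Benjamini-Hochberg adjustment over all genes tested. The difference between runs was the interaction of run and time, and that between kits the interaction of kit and time with the RNA sample as a block. Intervals of 95% are normal intervals from the SE. Likeness and correlations used log2 CPM with 0.5 CPM added. Members and lists were chosen with earlier results of these data known. The genes named were all members and the 2 genes most like each member. From each pathway list, the 2 largest positive and the 2 largest negative changes among those called in Takara were named. CD14, TICAM1, UNC93B1 and the marker NCR1 were named beside them for their role or as the 1 gene counted. The marker FCGR3A was named because it went against its list. The steps were tested on simulated data.

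Libraries of an animal share its number, and same-numbered control and heat stress libraries deviated together in Takara (median r = 0.23 over 12 animals, above 0.1 in 11) and little in Lexogen (0.02, above 0.1 in 2). The alternatives were the animal as a block, DESeq2 1.42.0, RLE and total-count scaling, no filter, sense counts, both times for animal 20, each run, run as a covariate and leaving out libraries. Positions come from the RefSeq annotation of ARS-UCD2.0. No sequence is shown.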

Additional observations from a re-analysis of the deposited data

Results flagged for a closer look

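The single library of animal 20 in each kit entered no comparison, because the sources disagree on its time. In these libraries TLR4 and TLR8 stood above every one of the 13 control libraries of the kit in plain CPM, without TMM scaling. TLR4 was at 132.2 CPM in Takara and 77.02 CPM in Lexogen, where the highest control libraries had 67.6 and 72.3 CPM. TLR8 was at 81.59 CPM in Takara and 228.4 CPM in Lexogen, where the highest control libraries had 32.7 and 161 CPM. The other receptors of animal 20 lay within the range of the control libraries or below it. No time was assigned to this animal from these values.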

How the results depend on the processing

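The simulated data held 100 genes changed 2-fold and 100 changed 4-fold. A 2-fold change was recovered for 70% of these genes in Takara and 23% in Lexogen, and a 4-fold change for 96% and 70%. In the real data more genes were called, 3646 in Takara and 616 in Lexogen. The adjustment of p-values is less strict when more genes change, so recovery in the real data can differ. A Lexogen value that missed the threshold does not show absence of change. For the difference between runs, a 2-fold change was recovered for 18% in Takara and 1% in Lexogen, and a 4-fold change for 68% and 15%. For the difference between kits in the heat response, 7% and 34% were recovered. There each library was drawn independently, without the variation shared by libraries of the same RNA sample, so these shares can be too low.

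The TLR4 and TLR8 calls in Takara were kept under DESeq2, RLE size factors, total counts, no filter on low counts, sense counts, run as a covariate and the animal as a block. With animal 20 as control, 0 receptors were called in Takara (TLR4 1.18, adjusted p = 0.0564; TLR8 1.01, adjusted p = 0.0847) and edgeR's quasi-likelihood test called 0 genes in all, with 3804 at an unadjusted p under 0.05. Within run 2 it called 1 receptor and 931 genes. With the replicate block (paired by animal), 4 receptors were called in Takara (TLR2, TLR3, TLR4 and TLR8, the last 2 at 1.51 and 1.13 with adjusted p = 0.0109 and 0.0234 in edgeR's quasi-likelihood test) and 0 in Lexogen (TLR8 0.97, adjusted p = 0.163), and genes called in Lexogen went from 616 to 66. The block moved the genes called for the difference between runs from 325 to 177 in Takara and from 2 to 5 in Lexogen, and changed no other call of a receptor.

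In Lexogen, 2 receptors were called (TLR4 and TLR8) by DESeq2, with RLE size factors, with no filter on low counts and with animal 20 as heat stress. None was called, 0 of 7, with total counts, with animal 20 as control, within run 1, within run 2 or without the deepest library, that of animal 15 under heat stress. All genes called in Lexogen were 1006 by DESeq2, 3273 with no filter, 2 with animal 20 as control, 402 within run 1 and 0 within run 2 (1275 at an unadjusted p under 0.05 in edgeR's quasi-likelihood test). Leaving out 1 library at a time gave 2 to 3 receptors called in Takara and 0 to 2 in Lexogen. These fits were added after seeing the data.

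Of the partners and signalling genes, 22 were called in Takara and 8 in Lexogen. In Takara these became 13 with total counts, 0 with animal 20 as control and 8 within run 2. In Lexogen they became 0 with the replicate block, 0 with animal 20 as control, 4 within run 1 and 0 within run 2. With the block, the Takara log2 fold changes of LY96, MYD88, REL, JUN, IL1RL1 and NFKBIA ran from 0.75 (JUN) to 2.46 (IL1RL1) with adjusted p from 0.0145 to 0.0463, and their Lexogen adjusted p from 0.0908 to 0.367, in edgeR's quasi-likelihood test.

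Directions reversed only for values that had not passed the test. These were TLR6 within run 2 (0.091 in Takara and 0.075 in Lexogen), TLR2 in Lexogen within run 1 (-0.26), and TLR7 in Lexogen within run 2 (0.14) and over the fits without 1 library (-0.52 to 0.042). For the difference between runs in Takara, TLR8 reversed with the replicate block (0.086). For the difference between kits in the heat response, TLR4 (0.091) and TLR8 (0.079) reversed with sense counts. In Lexogen the block reversed IKBKE (-0.29) and SLC15A4 (-0.13), run 1 reversed CTSH (-0.042) and SLC15A4 (-0.083), and run 2 reversed SIGIRR (0.83). The causes were not tested.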
